A study of Mus musculus with 2 samples.

Results

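The 49 genes described here encode proteins that copy DNA in S phase or that carry out mitosis, and they were chosen by symbol. They comprise 23 genes of DNA replication and its entry cyclins and 26 genes of mitosis. Of these 49, 46 had a probe set that the platform table assigns to 1 symbol, out of 22180 genes with such a probe set. Rfc4 and Ccne2 appeared there only on probe sets shared with another gene, and Ccnb1 was matched to none, so these 3 were not analysed here. Further probe sets of Mcm7, Tyms, Nusap1 and Top2a that are shared with other genes were left out as well. Messenger RNA was measured on 2 Affymetrix arrays, 1 for each genotype, from RAW264.7, an established mouse macrophage cell line. The wildtype and the HuR-deficient cells had both been transfected by lipofectamine with poly(I:C) of high molecular weight, an artificial double-stranded RNA, for 8 hours, at a dose that the labels put at 1 mg/ml. No unstimulated culture was analysed. The sample title calls the HuR-deficient line HuR-KO, a knockout. The sources used here do not say how the knockout was made or whether the line is 1 clone.

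DNA replication begins when the Mcm2-7 helicase is loaded onto origins in G1 and is then activated in S phase by cyclin-dependent kinases and Dbf4-dependent kinase. Mitosis is driven by Cdk1 with its cyclins, is held at metaphase by the spindle checkpoint until kinetochores have captured microtubules, and is ended by the anaphase-promoting complex. The mRNAs of both programmes oscillate in dividing cells, S phase genes under E2F factors and G2/M genes under the DREAM, B-Myb and Foxm1 complexes. HuR, the product of Elavl1, binds AU- and U-rich stretches of mRNA and is known from other cells to stabilise several cell cycle mRNAs, among them those of cyclins A2, B1 and E1.

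Both arrays were normalised together by the authors. The Pearson r between them was 0.970 over all probe sets, and every value below is a log2 signal from 1 array or the difference of a pair, HuR-deficient minus wildtype. With 1 array a group there is no replicate check, and no test between the genotypes was possible. Elavl1 itself gave 7.68 in wildtype cells and 7.75 in those labelled HuR-deficient, so its level did not mark the genotype, and the position of its probe set relative to the disruption is not known here. Of 10 macrophage markers, 9 passed the signal filter described below, while Mertk stayed below it. Lyz2 gave 12.34 and 12.20, Cd68 gave 11.55 and 11.34, and Itgam was weak at 4.86 and 4.53. Mertk, Lyz2, Cd68 and Itgam were named after their values were seen. Adgre1, which encodes F4/80, was the marker at 2-fold, with 4.94 and 6.51. The markers of T and B cells stayed at or below 5.13 on both arrays, and those of fibroblasts, epithelium and endothelium at or below 5.39. Itgam on both arrays and Adgre1 in wildtype lay within that range. The filter was also passed by 5 of 8 measured T and B cell markers and 6 of 11 of the others, so passing it did not separate the cell types. Extremes among those that passed were Cd3d (difference 0.52), Cd79a (-0.17), Col1a1 (0.16) and Krt18 (-0.61).

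No replication or mitosis gene differed by 2-fold between the genotypes, and at a 1.3-fold step fewer replication than mitosis genes did. The signal filter asked for at least 4.37 on one array or the other, which is the median over all probe sets with 1 symbol, and 45 of the 46 measured genes met it. At 2-fold (1 on the log2 scale) the count was 0 of 45, where 1.99% of all 11981 genes that passed did. At 1.5-fold, 1 of the 45 differed (2.22%), Nuf2, where 10.8% of all genes did. At a smaller step of 1.3-fold, 8 of the 45 (17.8%) differed, below the 26.8% of all genes that passed. Of these 8, 5 were lower in the HuR-deficient array (13.3% of all genes were) and 3 were higher (13.5% of all genes were). By programme, 2 of 21 replication genes (9.52%) and 6 of 24 mitosis genes (25.0%) were past 1.3-fold, so the mitosis share was close to that of all genes. The median size of the difference was 0.13 in replication genes and 0.26 in mitosis genes, against 0.22 over all genes that passed. The 5 lower ones were Nuf2, Rrm2, Ndc80, Nusap1 and Mad2l1, and the 3 higher ones were Cenpf, Pole and Cenpe. Among genes whose higher value reached 6, 6 of 39 members (15.4%) differed by 1.3-fold, against 25.0% of all genes that bright.

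The median difference of the 46 genes was -0.08, with 28 below 0 and 18 above, against 0.00 over all genes that passed, of which 48.6% were below 0. Their differences had an SD of 0.26 across genes, against 0.40 over all genes that passed. The 21 replication genes had a median of -0.05 (11 below 0, 10 above), and the 25 mitosis genes a median of -0.14 (17 below 0, 8 above). Bright members lay lower: 12 of the 16 with a mean signal of 8 or more were below 0, with a median of -0.21, where 52.3% of all genes that bright were below 0. The 22 members with a mean of 6 to 8 had a median of -0.04, and the 8 dimmer ones a median of 0.07. RNA came from whole cultures, so fewer cells in S phase or mitosis and less of an mRNA per cycling cell cannot be told apart.

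A rough measure of error within the arrays comes from genes that have a pair of probe sets, each of which gives its own difference between the same RNAs. Over 191 such genes with both sets at a mean of 6 or more, the paired differences lay 0.16 apart at the median, within 0.51 for 90% of genes, and had opposite signs in 27.2%. Of the 38 members that bright, 19 had a difference no larger than that median gap, and 2, Nuf2 and Rrm2, had one beyond 0.51. Over all 468 genes with a pair of sets that passed the filter, the gap was larger, 0.25 at the median and within 0.65 for 90%, with opposite signs in 31.6%. Of all 46 members, 27 lay at or under that wider median gap and 1, Nuf2, lay beyond 0.65. Each gap carries the error of both sets, whereas a member's difference comes from a single set. Sets of a gene may also read different transcripts, so the gap need not be error alone. It holds no variation between cultures.

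**Figure D1:**
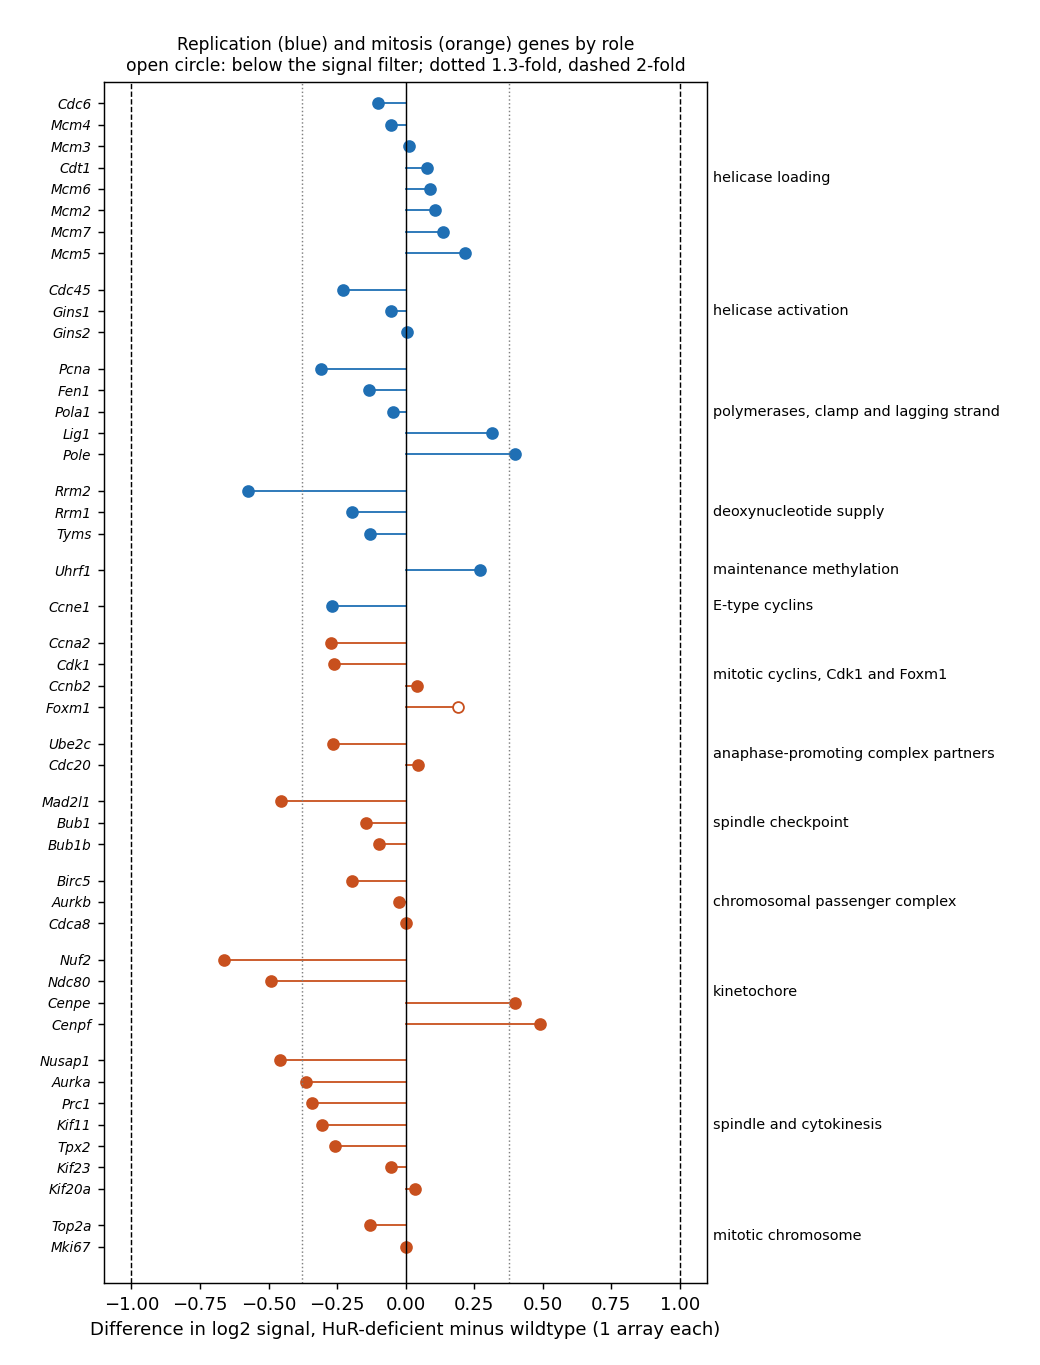
Difference in log2 signal, HuR-deficient minus wildtype, for each of the 46 measured genes, grouped by role; each point is 1 gene on 1 array per genotype. No gene reaches the dashed 2-fold lines, 8 lie on or beyond the dotted 1.3-fold lines, and the open circle (Foxm1) did not pass the signal filter.

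The differences of the helicase genes and their loaders ran from -0.23 to 0.22. Mcm2 to Mcm7 encode the ring that unwinds DNA, and their differences ran from -0.05 to 0.22 with a median of 0.10, 5 of the 6 above 0. Mcm5 had the largest, with 7.02 in wildtype and 7.24 in the HuR-deficient array (difference 0.22, 1.16-fold higher). Mcm7 had 7.13 in the HuR-deficient array, 0.14 above its wildtype signal, and Mcm2 had 6.66 and 6.76. These subunits stand in equal numbers in the ring, and none of their mRNAs stood apart from the others. Mcm6 had 7.67 and 7.75, Mcm3 had 6.97 and 6.98, and Mcm4 had 6.85 and 6.80. Cdt1, which brings the ring to origins, gave 7.41 and 7.49, and Cdc6, the ATPase that helps to load it, gave 5.90 and 5.80. Cdc45 and the GINS complex join the ring to make the active helicase. Cdc45 gave 8.14 in wildtype and 7.91 in the HuR-deficient array (difference -0.23), while the GINS subunit genes Gins1 (8.80 and 8.75) and Gins2 (8.27 and 8.28) were nearly level. All 11 genes of this group were below 1.3-fold, a step that 26.8% of all genes that passed reached.

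Promoter motifs differed in frequency between the replication and the mitosis genes. RefSeq windows of 300 bases, 250 before to 50 after the annotated start (table build GRCm38.p6), were found for 39 of the 49 genes, 45 windows in all, as 5 genes have several. They were searched on both strands for an E2F site (TTTGGCGC, TTTCCCGC, TTTCGCGC or TTTGCCGC), for the cell cycle homology region or CHR (TTTGAA or TTCGAA), which DREAM and B-Myb complexes bind, and for the NF-Y box (CCAAT). Different motifs overlapped in 2 of the 45 windows. An E2F site was present in 9 of 23 replication windows (39.1%) and 1 of 22 mitosis windows (4.55%), against 2.26% of all 32851 windows. The windows of Mcm5 and Mcm6 are shown because each holds overlapping E2F matches on opposite strands, with E2F and NF-Y letters in capitals; that of Rrm2, the replication gene with the largest difference, holds an NF-Y box and no E2F match.
Mcm5, chr8:75109259-75109558, plus strand: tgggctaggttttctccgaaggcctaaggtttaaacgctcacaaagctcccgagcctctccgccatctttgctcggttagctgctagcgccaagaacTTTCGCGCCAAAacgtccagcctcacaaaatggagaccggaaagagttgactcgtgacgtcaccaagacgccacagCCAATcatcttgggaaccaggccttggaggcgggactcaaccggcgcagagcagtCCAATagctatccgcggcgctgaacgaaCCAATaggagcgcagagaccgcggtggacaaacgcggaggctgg
Mcm6, chr1:128359656-128359955, minus strand: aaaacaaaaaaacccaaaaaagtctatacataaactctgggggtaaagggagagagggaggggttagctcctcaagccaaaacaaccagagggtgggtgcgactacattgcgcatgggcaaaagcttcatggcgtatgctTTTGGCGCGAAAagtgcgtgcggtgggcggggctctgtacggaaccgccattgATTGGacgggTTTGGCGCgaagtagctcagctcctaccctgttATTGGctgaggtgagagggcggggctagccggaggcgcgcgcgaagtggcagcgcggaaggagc
Rrm2, chr12:24708004-24708303, plus strand: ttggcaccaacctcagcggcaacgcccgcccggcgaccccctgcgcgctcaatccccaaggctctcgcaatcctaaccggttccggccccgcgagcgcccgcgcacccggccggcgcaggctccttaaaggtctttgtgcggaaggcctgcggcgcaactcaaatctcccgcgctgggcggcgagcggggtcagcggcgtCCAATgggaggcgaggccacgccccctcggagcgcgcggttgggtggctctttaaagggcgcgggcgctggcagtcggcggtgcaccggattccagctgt
In Mcm5 the paired E2F matches cover bases -153 to -142 from the start, and in Mcm6 bases -110 to -99, with a further match at -47 to -40. The 9 measured replication genes with an E2F match had a median difference of 0.09 and 2 below 0, and the 8 with a window but no match had a median of -0.21 and 7 below 0. A match in any window counted, and Lig1, Uhrf1 and Mcm7 also have windows without one. No match means only that the exact letters searched were absent. Rrm2, among the 8, was read from its brighter probe set (difference -0.58), and its other set gave 0.14. Over both programmes, the NF-Y box gave a smaller split in the same direction. The 26 measured genes with it had a median of -0.05 (14 below 0), and the 11 without it a median of -0.19 (9 below 0). The motifs were chosen with the differences known, so these splits are descriptions of these genes.

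Genes of the replication fork lay on both sides of 0. Pole encodes the catalytic subunit of the leading strand polymerase and had the highest difference among replication genes, with 4.80 in wildtype and 5.20 in the HuR-deficient array (difference 0.40, 1.32-fold higher). Its wildtype signal was close to the filter, and a second Pole probe set, which did not pass, gave 4.09 and 4.01. The mean of both Pole probe sets differed by 0.16, under 1.3-fold. Lig1, the ligase that seals Okazaki fragments, had 8.41 and 8.73 (difference 0.31). Fen1, the nuclease that trims those fragments, had 5.63 and 5.49, and Pola1, the catalytic subunit of the primase-bound polymerase, had 5.58 and 5.53. Pcna, the sliding clamp, was on the other side of 0, with 11.11 in wildtype and 10.80 in the HuR-deficient array (difference -0.31, 1.24-fold lower). Uhrf1, which recruits the maintenance DNA methyltransferase to newly copied DNA, gave 4.73 and 5.00 (difference 0.27).

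The 3 genes of deoxynucleotide supply were all below 0. Rrm2 encodes the small, cell cycle-regulated subunit of ribonucleotide reductase, and its brighter probe set gave 11.00 in wildtype and 10.42 in the HuR-deficient array. That difference of -0.58 (1.49-fold lower) was matched or exceeded in size by 11.3% of all genes that passed. The other Rrm2 probe set pointed the opposite way, with 6.47 and 6.61 (difference 0.14). The 2 sets thus lay 0.72 apart, and their mean differed by -0.22, so the direction of Rrm2 rested on which set was read. Rrm1, the large subunit, had 6.67 and 6.47 (difference -0.20), and Tyms, thymidylate synthase, had 8.36 and 8.23 (difference -0.13). Ccne1, whose cyclin E1 activates Cdk2 at the entry to S phase, had 6.30 and 6.03 (difference -0.27).

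**Figure D2:**
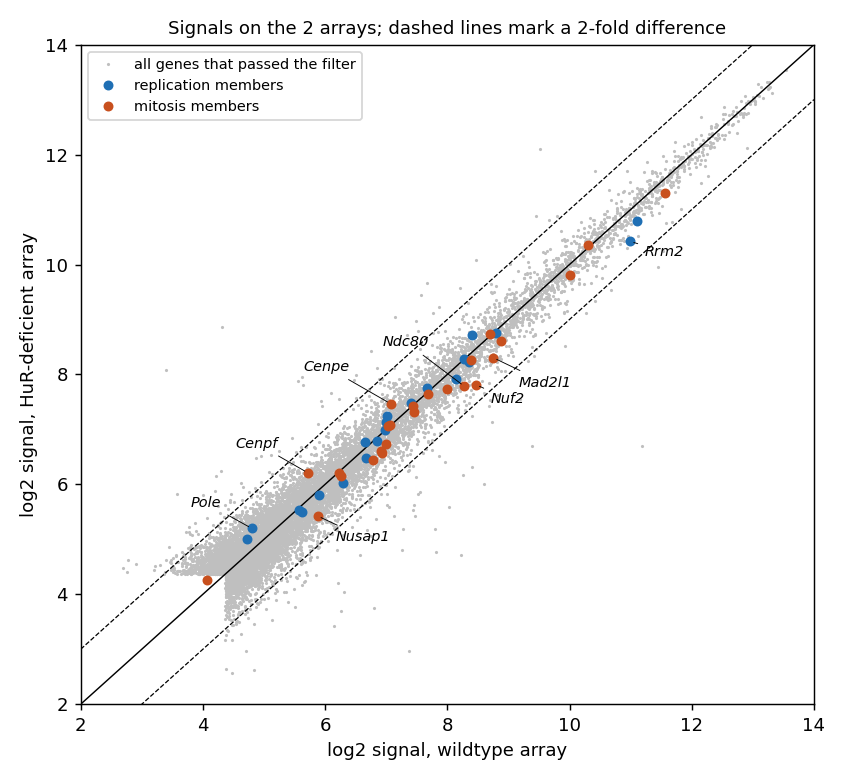
Log2 signal of each gene on the wildtype array (x axis) and on the HuR-deficient array (y axis), for genes that passed the filter (grey), replication members (blue) and mitosis members (orange). All members lie between the dashed 2-fold lines, and the 8 genes past 1.3-fold are named.

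Among the mitotic regulators, the kinase Cdk1 had 11.55 in wildtype and 11.30 in the HuR-deficient array (difference -0.26). Ccna2, whose cyclin A2 acts in S phase and G2, had 8.00 and 7.73 (difference -0.27, 1.21-fold lower). Ccnb2, a mitotic cyclin, was level at 10.31 and 10.35. The cyclin genes known as HuR-bound that could be read here, Ccna2 and Ccne1, therefore differed by the same -0.27, a size that over 40% of all genes that passed matched or exceeded (41.6% for Ccna2 and 42.1% for Ccne1). Foxm1, a transcription factor of G2/M genes, gave 4.07 and 4.26 and did not pass the filter. Ube2c, the ubiquitin-conjugating enzyme of the anaphase-promoting complex, had 8.87 and 8.61 (difference -0.27), while Cdc20, its activator in mitosis, had 8.70 and 8.74.

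All 3 spindle checkpoint members were below 0. Mad2l1, which encodes the Mad2 protein that holds Cdc20 inactive, had 8.76 in wildtype and 8.30 in the HuR-deficient array (difference -0.45, 1.37-fold lower). Bub1, a kinetochore-bound checkpoint kinase, had 7.45 and 7.31, and Bub1b, which encodes BubR1, had 6.26 and 6.16. Those differences were -0.14 and -0.10. Other checkpoint genes, named after their values were seen, lay on both sides of 0: the kinase gene Ttk had a difference of 0.23, Mad1l1, which recruits Mad2 to kinetochores, one of 0.21, and Bub3 one of -0.04. The chromosomal passenger complex corrects faulty microtubule attachments, and its genes differed little: the kinase gene Aurkb had 6.22 and 6.20, the borealin gene Cdca8 had 7.43 and 7.43, and the survivin gene Birc5 had 10.00 and 9.81 (difference -0.19).

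The 4 kinetochore genes held the widest spread of any role and were all past 1.3-fold, 2 in each direction, where 26.8% of all genes that passed were. Among the other kinetochore and checkpoint genes, 6 of 28 (21.4%) were past 1.3-fold. Nuf2 and Ndc80 encode the coiled-coil partners that grip microtubules. Nuf2 had the largest difference of all 46 genes, with 8.47 in wildtype and 7.81 in the HuR-deficient array (difference -0.66, 1.58-fold lower), a size that 7.70% of all genes that passed matched or exceeded. Ndc80 had 8.28 and 7.79 (difference -0.49, 1.40-fold lower). The remaining subunits of the same complex, which are not among the 49, did not share a direction: Spc25, named after its value was seen, had 6.97 and 6.59 (difference -0.37), whereas Spc24 had 9.32 and 10.04 (difference 0.71). Cenpf and Cenpe encode very large proteins of the outer kinetochore corona, the latter a motor that moves chromosomes to the spindle equator. Cenpf had 5.72 in wildtype and 6.21 in the HuR-deficient array (difference 0.49, 1.41-fold higher), and Cenpe had 7.07 and 7.47 (difference 0.40, 1.32-fold higher). These 4 genes had 1 probe set each, so no second set was available to check their directions.

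A CHR was present in 16 of 22 mitosis windows (72.7%), against 4 of 23 replication windows (17.4%) and 19.2% of all windows. Both a CHR and an NF-Y box were present in 15 mitosis windows (68.2%), 3 of 23 replication windows and 7.52% of all windows. The windows of Cdk1, Ccnb2 and Top2a are shown as examples with both motifs, and those of Nuf2, Ndc80 and Cenpf because these kinetochore genes had the largest differences; capitals mark any E2F, CHR or NF-Y letters.
Cdk1, chr10:69352863-69353162, minus strand: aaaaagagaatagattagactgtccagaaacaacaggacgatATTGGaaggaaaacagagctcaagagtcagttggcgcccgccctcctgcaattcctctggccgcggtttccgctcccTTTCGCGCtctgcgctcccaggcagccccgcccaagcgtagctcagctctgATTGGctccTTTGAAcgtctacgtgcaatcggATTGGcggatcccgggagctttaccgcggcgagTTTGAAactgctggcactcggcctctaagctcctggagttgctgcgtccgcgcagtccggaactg
Ccnb2, chr9:70421505-70421804, minus strand: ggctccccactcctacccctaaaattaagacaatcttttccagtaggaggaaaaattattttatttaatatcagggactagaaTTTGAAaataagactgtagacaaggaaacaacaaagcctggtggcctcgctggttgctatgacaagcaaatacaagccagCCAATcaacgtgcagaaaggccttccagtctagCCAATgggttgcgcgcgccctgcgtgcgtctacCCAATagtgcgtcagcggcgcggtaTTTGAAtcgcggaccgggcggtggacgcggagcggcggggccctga
Top2a, chr11:99024140-99024439, minus strand: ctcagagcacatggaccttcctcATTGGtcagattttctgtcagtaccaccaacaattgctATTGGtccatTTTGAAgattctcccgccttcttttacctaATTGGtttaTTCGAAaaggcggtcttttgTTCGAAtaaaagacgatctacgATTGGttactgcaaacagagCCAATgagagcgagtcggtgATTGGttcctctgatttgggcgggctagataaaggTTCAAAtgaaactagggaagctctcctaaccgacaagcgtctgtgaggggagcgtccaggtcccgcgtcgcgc
Nuf2, chr1:169531415-169531714, minus strand: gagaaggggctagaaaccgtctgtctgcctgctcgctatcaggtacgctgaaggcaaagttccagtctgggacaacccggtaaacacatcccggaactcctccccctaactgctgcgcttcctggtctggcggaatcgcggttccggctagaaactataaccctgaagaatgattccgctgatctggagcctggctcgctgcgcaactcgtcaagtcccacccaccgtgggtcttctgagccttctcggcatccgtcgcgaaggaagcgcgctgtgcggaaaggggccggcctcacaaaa
Ndc80, chr17:71526808-71527107, minus strand: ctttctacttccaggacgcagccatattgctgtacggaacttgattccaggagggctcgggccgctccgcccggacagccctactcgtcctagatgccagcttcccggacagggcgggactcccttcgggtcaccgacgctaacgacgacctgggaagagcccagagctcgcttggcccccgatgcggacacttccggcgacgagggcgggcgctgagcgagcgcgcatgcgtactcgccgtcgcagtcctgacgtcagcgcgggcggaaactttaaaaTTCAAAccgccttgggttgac
Cenpf, chr1:189688037-189688336, minus strand: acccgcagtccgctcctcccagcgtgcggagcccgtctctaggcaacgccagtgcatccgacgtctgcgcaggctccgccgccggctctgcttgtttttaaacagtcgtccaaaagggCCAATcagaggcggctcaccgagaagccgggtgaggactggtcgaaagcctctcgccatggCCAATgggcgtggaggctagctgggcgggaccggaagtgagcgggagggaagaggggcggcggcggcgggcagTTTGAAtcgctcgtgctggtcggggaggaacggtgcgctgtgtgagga
Cdk1 was the mitosis gene with an E2F match (bases -131 to -124) beside CHR letters at -71 to -66 and -15 to -10. Cenpf held a CHR at 3 to 8 after the start and NF-Y boxes at -132 to -128 and -71 to -67, Ndc80 held a CHR alone at 30 to 35, and the Nuf2 window held none of these letters. The 19 measured genes with a CHR had a median difference of -0.13 (12 below 0), and the 18 with a window but no CHR a median of -0.12 (11 below 0).

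**Figure D3:**
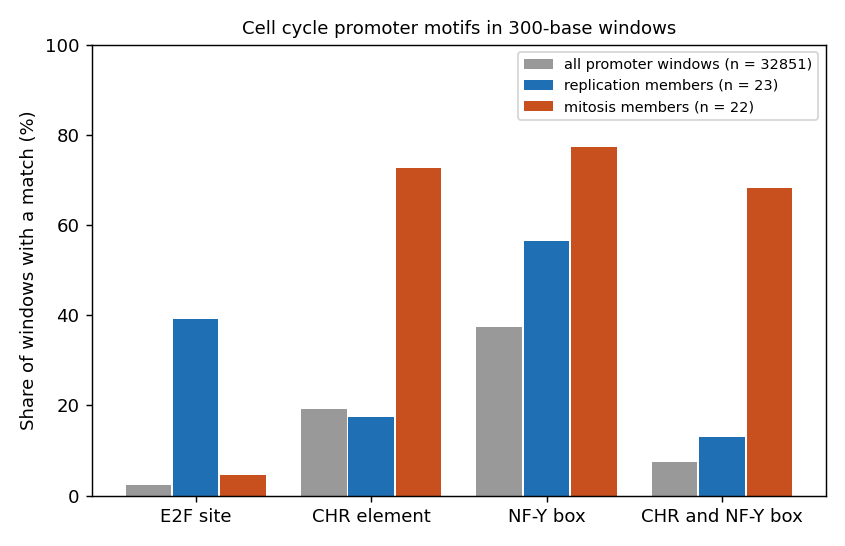
Share of 300-base promoter windows that hold a match to each motif (y axis, percent), for all windows (grey), replication members (blue) and mitosis members (orange). E2F matches are in 39.1% of replication windows and CHR matches in 72.7% of mitosis windows.

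Genes of the spindle and of cytokinesis were mostly below 0, 6 of 7, where 48.6% of all genes that passed were. Their median was -0.30, with a range from -0.46 to 0.04. At 1.3-fold, 1 of the 7 differed (14.3%), against 26.8% of all genes that passed. Of the 25 other spindle and cytokinesis genes, 14 were below 0, with a median of -0.05. Nusap1, a protein that bundles microtubules near chromosomes, had 5.88 in wildtype and 5.42 in the HuR-deficient array (difference -0.46, 1.37-fold lower). Aurka, the kinase of spindle poles, had 6.93 and 6.56 (difference -0.36, 1.28-fold lower), just short of 1.3-fold. Tpx2, which activates Aurora A and nucleates microtubules, had 6.74 in the HuR-deficient array, a difference of -0.26 from wildtype. Kif11, the motor that pushes the spindle poles apart, had 6.91 and 6.61 (difference -0.30). Prc1, which crosslinks the central spindle, had 6.79 and 6.45 (difference -0.34). The motors of late mitosis were closer to level: Kif23, of the centralspindlin complex, had 7.69 and 7.64, and Kif20a had 7.02 and 7.06. Top2a, the topoisomerase that untangles sister chromatids, had 8.39 and 8.26 (difference -0.13). Mki67, which coats mitotic chromosomes and is the usual marker of dividing cells, was level at 7.07 on both arrays (difference 0.00).

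Other genes of the same pathways, in 11 lists chosen by function, gave the context. Of their 206 measured genes, 201 passed the filter and none differed by 2-fold. At 1.3-fold, 25 were lower and 16 higher, which is 20.4% of the 201 against 26.8% of all genes. The other replication genes (69 measured in 4 lists) had a median difference of -0.01, and the other mitosis genes (107 measured in 5 lists) a median of -0.04. The median of the 25 mitosis members, -0.14, lay further below 0 than either, and no test of that gap was possible.

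By list, the other origin and helicase genes had a median of -0.03, from Wdhd1 (5.77 in wildtype and 5.16 in the HuR-deficient array) to Orc1 (5.36 and 5.85). Wdhd1 tethers the primase-bound polymerase to the helicase, and Orc1 is part of the complex that marks origins. The other fork and polymerase genes had a median of 0.01, from the nuclease gene Dna2 (5.38 and 4.76) to Chaf1a (4.94 and 5.59), a subunit of the chaperone that places histones on new DNA. The other deoxynucleotide genes had a median of 0.00, from Rrm2b (5.74 and 5.25), the p53-induced reductase subunit, to Samhd1 (10.56 and 10.83), which degrades deoxynucleotides. Fork repair genes had a median of -0.08, from the deubiquitinase gene Usp1 (6.17 and 5.36) to the checkpoint kinase gene Atr (5.64 and 6.11). Of the 16 fork repair genes that passed, 7 (43.8%) were past 1.3-fold, 4 lower and 3 higher, against 26.8% of all genes that passed. Among these, Brca1 (4.54 and 4.94) and Xrcc3 (4.59 and 4.99), named after their values were seen, were weak on both arrays. No list among these held a gene at 2-fold.

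The E2F, pocket protein and DREAM genes had a median of -0.13, with 13 of 19 below 0. That median was -0.08 over those that passed the filter and -0.04 where both values had to reach it. They ran from Rbl2 (4.47 in wildtype and 3.88 in the HuR-deficient array), which encodes p130, to Tfdp2 (5.98 and 6.34), an E2F partner. Rbl2 was close to the filter in wildtype and below it in the HuR-deficient array. The CDK inhibitors and antiproliferative genes lay on both sides, with 2 of 11 lower at 1.3-fold (13.3% of all genes were) and 3 higher (13.5% of all genes were). Cdkn2c, which encodes the Cdk4 and Cdk6 inhibitor p18, had 7.60 and 6.96 (difference -0.64), and Cdkn2a had 4.73 and 5.42 (difference 0.69). Cdkn1a, the p53 target that encodes p21, named after its value was seen, had 9.57 and 10.23 (difference 0.65). The remaining genes past 1.3-fold, also named after their values were seen, were Cdkn2b (difference 0.39) and, on the lower side, Btg1 (difference -0.50).

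On the mitotic side, 14 of 15 other mitotic entry genes were below 0, where 48.6% of all genes that passed were. Their median was -0.11, with a median size of 0.24 (0.22 over all genes that passed). They ranged from -0.51 for the kinase gene Melk (7.03 and 6.52) to 0.26 for Gtse1 (4.83 and 5.10). Some of those below 0 were nearly level, such as Cdc25a and Arpp19 at -0.01 each. The Polo-like kinase genes of this list were Plk1 with 7.10 and 7.07 and Plk4 with 6.63 and 6.52. Cdc25a, Arpp19, Plk1 and Plk4 were named after their values were seen. The other kinetochore and checkpoint genes had a median of -0.07, from Ska2 (8.88 and 8.07), part of a complex that follows microtubule ends, to Spc24. Ska2 has 2 probe sets, and the difference was -0.81 for the brighter, -0.10 for the other and -0.46 for their mean. The other spindle and cytokinesis genes had a median of -0.05, from the chromokinesin gene Kif4 (6.19 and 5.23, difference -0.96) to the motor gene Kif15 (6.81 and 7.32, difference 0.51). Kif4, short of 2-fold, had the largest difference of the 206. Condensin, cohesin and separase genes had a median of 0.12, from the cohesin genes Rad21 (7.07 and 6.40) to Stag2 (4.98 and 5.46). Subunits and regulators of the anaphase-promoting complex had a median of 0.02, from the inhibitor gene Fbxo5 (8.44 and 8.07) to Anapc13 (10.34 and 10.84).

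**Figure D4:**
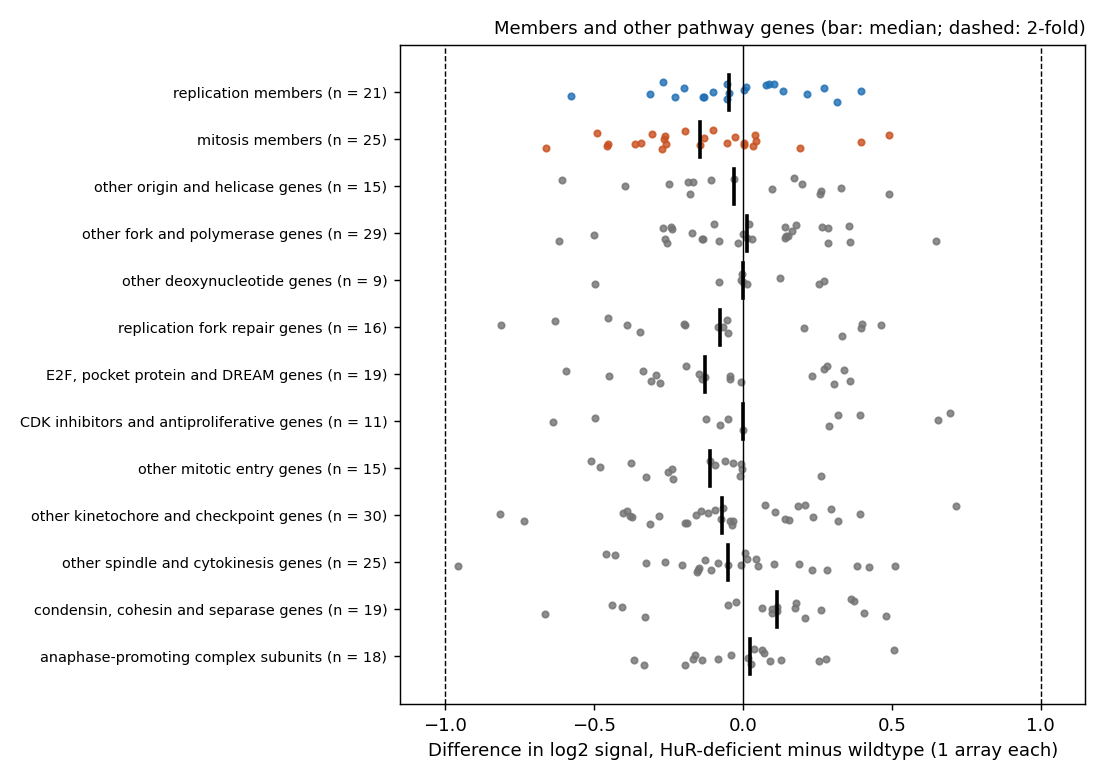
Difference in log2 signal, HuR-deficient minus wildtype, for the members (blue and orange) and the other genes of the pathway (grey); each point is 1 gene, bars are list medians and dashed lines mark 2-fold. The list medians run from -0.14 for mitosis members to 0.12 for condensin, cohesin and separase genes, and no point reaches 2-fold.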

How the data were processed

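The series holds 2 Affymetrix arrays, 1 wildtype and 1 HuR-deficient. Per the submitters' processing notes, the authors used RMA, and they deposited log2 signals; RMA corrects background, forces the arrays to 1 distribution and summarises each probe set, which hides changes in total mRNA and compresses weak signals. The range of the values (0.434 to 13.77) showed the log2 scale; the sources used here give no RMA version, annotation or build. Of 41345 probe sets, 23521 had 1 symbol in the platform table, 1814 several and 16010 none; only the first were used, taking the set with the highest mean for the 1082 genes with several. The members and lists were chosen with earlier results of these data known. All 49 members are named, and of each other list the genes at 2-fold or else the extremes; exceptions are marked. Precision is limited by 1 array a group, so no p-value was computed. Counts at 2-fold and 1.3-fold use genes that passed the filter, and medians use all measured genes. Alternatives covered centring, a second quantile normalisation, a loess trend (span 0.3), other probe sets and other filters. The steps were tested on simulated data. Python 3.11.15, pandas 2.3.3, numpy 2.4.6, scipy 1.17.1, statsmodels 0.14.6 and matplotlib 3.10.9 were used.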

Additional observations from a re-analysis of the deposited data

How the results depend on the processing

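Under the 8 alternatives for normalisation, probe set and filter, the count of members at 2-fold stayed at 0, and at a 1.5-fold threshold it was 1, Nuf2. The count at 1.3-fold ran from 6 to 8, the median of all members from -0.10 to -0.05 and that of the mitosis members from -0.17 to -0.13. Rrm2 and Pole were the replication genes past 1.3-fold. With the mean of all probe sets, both fell short of it, at -0.22 and 0.16. The replication median ran from -0.05 to 0.00, at or above 0 only with the probe set of lowest mean. That choice also reversed Rrm2, to 0.14, and brought Ska2 to -0.10. Among the other pathway genes, 41 were at 1.3-fold, and 23 when the higher value had to reach 6, an alternative that tests fewer genes. No paired analysis was possible because each genotype has 1 array. With 1 array a group, leaving out an array leaves no comparison. Weak signals such as Pole, Uhrf1 and Foxm1 lie near the filter and were not shown to be above background.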
